A study of Mus musculus with 12 samples.

Results

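The 36 genes described here encode aminoacyl-tRNA synthetases, the enzymes that load transfer RNAs with their amino acids. They were taken by gene symbol from the deposited table of 50674 genes and comprise 20 cytosolic and 16 mitochondrial enzymes. Of these, 35 matched by the symbol used here and Mars1 by its older symbol, Mars. Polyadenylated RNA was sequenced from natural killer (NK) cells grown from mouse spleen with IL-2, all labelled strain C57BL/6. There were 3 libraries, given as biological replicates, in each of 4 groups: Mirc11-/- cells after 6 h of NKG2D stimulation, unstimulated Mirc11-/- cells, wild-type cells after 6 h of NKG2D stimulation, and unstimulated wild-type cells. NKG2D is an activating receptor of NK cells, and Mirc11 is the microRNA cluster that holds miR-23a, miR-27a and miR-24-2. Every group had been expanded with IL-2, the unstimulated ones included. The labels do not say how the cluster was deleted, in which cells, whether animals were pooled, or which agent engaged NKG2D.

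Each synthetase joins a given amino acid to its transfer RNAs, and the charged transfer RNAs carry these amino acids to the ribosome. Cytosolic and mitochondrial protein synthesis use separate enzymes in most cases, and the mitochondrial ones are encoded in the nucleus and imported. Glycyl- and lysyl-tRNA synthetase are exceptions, since Gars and Kars each encode both the cytosolic and the mitochondrial form, and both are counted here with the cytosolic enzymes. Several cytosolic enzymes sit together with scaffold proteins in the multisynthetase complex. Many cytosolic synthetase genes are targets of ATF4, the transcription factor of the amino-acid and integrated stress response. ATF4 binds, with a C/EBP partner, a composite element (the C/EBP-ATF response element) in promoters of amino-acid transporter, biosynthesis and synthetase genes. Lymphocytes that grow under IL-2 are known to raise this programme, together with amino-acid uptake, through mTORC1 and MYC.

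Totals ranged from 15139281 to 25342991 counts per library, and 17457 genes, all 36 synthetases among them, passed the filter on low counts. Mir27a, a gene of the deleted cluster, had 0 counts in all 6 Mirc11-/- libraries, and 1, 0 and 4 in stimulated and 2, 3 and 3 in unstimulated wild-type libraries. Mir23a had 0 counts in all 12 libraries and Mir24-2 had 1 count, in a stimulated wild-type library, so neither separates the genotypes. The NK markers Ncr1, Klrb1c, Eomes, Prf1 and Gzmb were all detected, whereas S100a8, S100a9, Clec9a, Cd79b and Lyz2, markers of other blood cells, averaged under 1 CPM (counts scaled to a common library size) in every group. Other markers of such cells, among them Ighm and Itgax, were detected, and the whole lists are given with the markers of cell type. Replicate 1 of the stimulated Mirc11-/- group had the lowest CPM of the 12 libraries for all 20 cytosolic synthetases, and replicate 1 of the stimulated wild-type group was the lowest of its group for 18 of the 20. These 2 libraries also had the highest summed CPM of vomeronasal receptor genes (pheromone receptors of sensory neurons) in their groups: the sums were 57.6, 32.8 and 38.98 in stimulated and 10.6, 12.9 and 12.6 in unstimulated Mirc11-/- libraries. In wild-type cells they were 29.6, 17.2 and 18.2 in stimulated and 10.04, 9.89 and 12.5 in unstimulated libraries. The sum adds 329 genes, of which 3 passed the filter on low counts. In both genotypes the stimulated libraries were higher for this sum without overlap, so the sum and stimulation cannot be told apart. The counts of synthetases called and their cytosolic medians were also computed without both libraries, an alternative chosen after seeing the data; single-gene values, sums, ratios and other lists are given with them. In these bulk libraries, fewer cells of a type and less RNA per cell cannot be told apart.

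The promoters of the synthetases that changed most can be read for the ATF4 element. The core TGATGNAA, in which N is any base, was searched on both strands from 250 bases before to 50 bases after each gene's start in the RefSeq promoter table (GRCm38.p6). It was found in 5 of the 13 cytosolic synthetase promoters in the table (38.5%), in 0 of 14 mitochondrial ones, and in 1096 of 27025 promoters in all (4.06%). The matches of 4 of these genes, which fell in both genotypes, are shown in 30-base windows along the gene's own strand with the match in capitals; TTNCATCA is the core read on the other strand.
Gars, match from 30 bases before the start (chr6:55037960-55037989, plus strand): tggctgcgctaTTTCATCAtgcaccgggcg
Iars, match from base 8 after the start (chr13:49682126-49682155, plus strand): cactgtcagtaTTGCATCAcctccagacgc
Tars, match from 15 bases before the start (chr15:11399655-11399684, minus strand): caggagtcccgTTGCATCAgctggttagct
Yars, match from base 4 after the start (chr4:129189895-129189924, plus strand): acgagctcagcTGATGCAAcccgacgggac
Asns and Chac1, well-known ATF4 targets with roles in asparagine synthesis and glutathione breakdown, are shown for comparison.
Asns, match from 23 bases before the start (chr6:7693214-7693243, minus strand): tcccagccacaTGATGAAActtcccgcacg
Chac1, match from 193 bases before the start (chr2:119351038-119351067, plus strand): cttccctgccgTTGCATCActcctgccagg
In Iars, Tars and Yars, the base at the N position gives TTGCATCA or its other-strand reading TGATGCAA, the form also present in Chac1. Gars has the form present in Asns.
The 250 bases before the start are given for Gars and Tars, which hold a match there and fell in both genotypes, and for Kars, which holds none in its window and passed the test in neither. Eprs, Farsa, Farsb and Mars1 also hold none in their windows, yet fell in both genotypes.
Gars (chr6:55037751-55038000, plus strand): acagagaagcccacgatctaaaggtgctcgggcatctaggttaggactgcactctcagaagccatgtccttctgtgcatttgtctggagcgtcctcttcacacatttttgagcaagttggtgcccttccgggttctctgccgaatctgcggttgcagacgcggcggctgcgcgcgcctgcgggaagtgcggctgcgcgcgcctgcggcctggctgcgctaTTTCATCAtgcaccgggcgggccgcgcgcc
Tars (chr15:11399659-11399908, minus strand): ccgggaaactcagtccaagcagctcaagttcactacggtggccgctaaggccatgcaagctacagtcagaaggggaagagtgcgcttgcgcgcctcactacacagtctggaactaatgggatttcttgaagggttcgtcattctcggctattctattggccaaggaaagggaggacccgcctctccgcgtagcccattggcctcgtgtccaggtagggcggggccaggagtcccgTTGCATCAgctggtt
Kars (chr8:112011355-112011604, minus strand): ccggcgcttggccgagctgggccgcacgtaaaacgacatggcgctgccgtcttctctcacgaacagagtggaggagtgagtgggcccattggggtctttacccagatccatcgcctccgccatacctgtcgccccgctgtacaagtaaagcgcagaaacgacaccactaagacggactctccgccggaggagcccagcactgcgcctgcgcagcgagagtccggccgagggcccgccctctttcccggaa
A match is a run of letters and no evidence of binding, and a window without one says nothing about ATF4. The cytosolic genes Cars, Hars, Lars, Nars, Rars, Vars and Wars and the mitochondrial genes Hars2 and Pars2 had no entry in the table under these symbols. Other symbols were not searched for them.

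Cytosolic synthetase transcripts were far more abundant than mitochondrial ones. Levels between genes were compared as RPKM, which divides by the summed exon length of the gene (GENCODE vM21). The median over the 20 cytosolic genes was 16.6 RPKM in stimulated and 29.98 RPKM in unstimulated Mirc11-/- cells, and 22.8 RPKM in stimulated and 32.5 RPKM in unstimulated wild-type cells. Over the 16 mitochondrial genes it was 2.67 and 2.42 RPKM in stimulated and unstimulated Mirc11-/- cells, and 2.55 and 2.34 RPKM in stimulated and unstimulated wild-type cells. Gars was the most abundant cytosolic member in each group, at 43.9 ± 7.52 RPKM in stimulated and 97.98 ± 2.296 in unstimulated Mirc11-/- cells (SD, n = 3), and at 66.8 ± 6.097 and 112 ± 6.101 RPKM in stimulated and unstimulated wild-type cells. Among mitochondrial members without the erratic Lars2, Rars2, the arginyl enzyme, and Iars2, the isoleucyl enzyme, stood highest in unstimulated wild-type cells, at 9.19 ± 0.195 and 7.83 ± 0.339 RPKM.

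Most cytosolic synthetase transcripts were lower after NKG2D stimulation in both genotypes. In Mirc11-/- cells, 18 of 20 fell and none rose (edgeR quasi-likelihood test, adjusted p below 0.05), with a median log2 fold change of -0.87 against 0.03 over all genes tested. In wild-type cells 16 of 20 fell and none rose, with a median of -0.51 against 0.02 over all genes. All 16 also fell in Mirc11-/- cells, and Dars and Sars, the aspartyl and seryl enzymes, were called in Mirc11-/- cells alone. The background was high: 45.6% of all genes tested were called in Mirc11-/- cells, 22.1% as lower, and 31.8% in wild-type cells, 15.7% as lower. Among genes at or above the level of the least abundant cytosolic synthetase, 41.3% were called lower in Mirc11-/- cells and 26.0% in wild-type cells. The summed CPM of the 20 genes were 1609, 2076 and 2102 in stimulated Mirc11-/- libraries, against 3360.3, 3238 and 3533 in unstimulated ones. In wild-type cells they were 2324, 2774 and 2636 in stimulated libraries, against 3563, 3853 and 3455 in unstimulated ones. The sums did not overlap between treatments in either genotype. Single genes were lower without overlap for 18 of the 20 in Mirc11-/- cells, where 26.2% of all genes tested were, and for 16 of the 20 in wild-type cells, where 24.1% were. Leaving out each library in turn kept the count of cytosolic genes called lower between 16 and 19 in Mirc11-/- cells and between 15 and 16 in wild-type cells. Without replicate 1 of both stimulated groups, 17 fell in Mirc11-/- and 16 in wild-type cells, with medians of -0.75 and -0.44 log2.

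**Figure D1:**
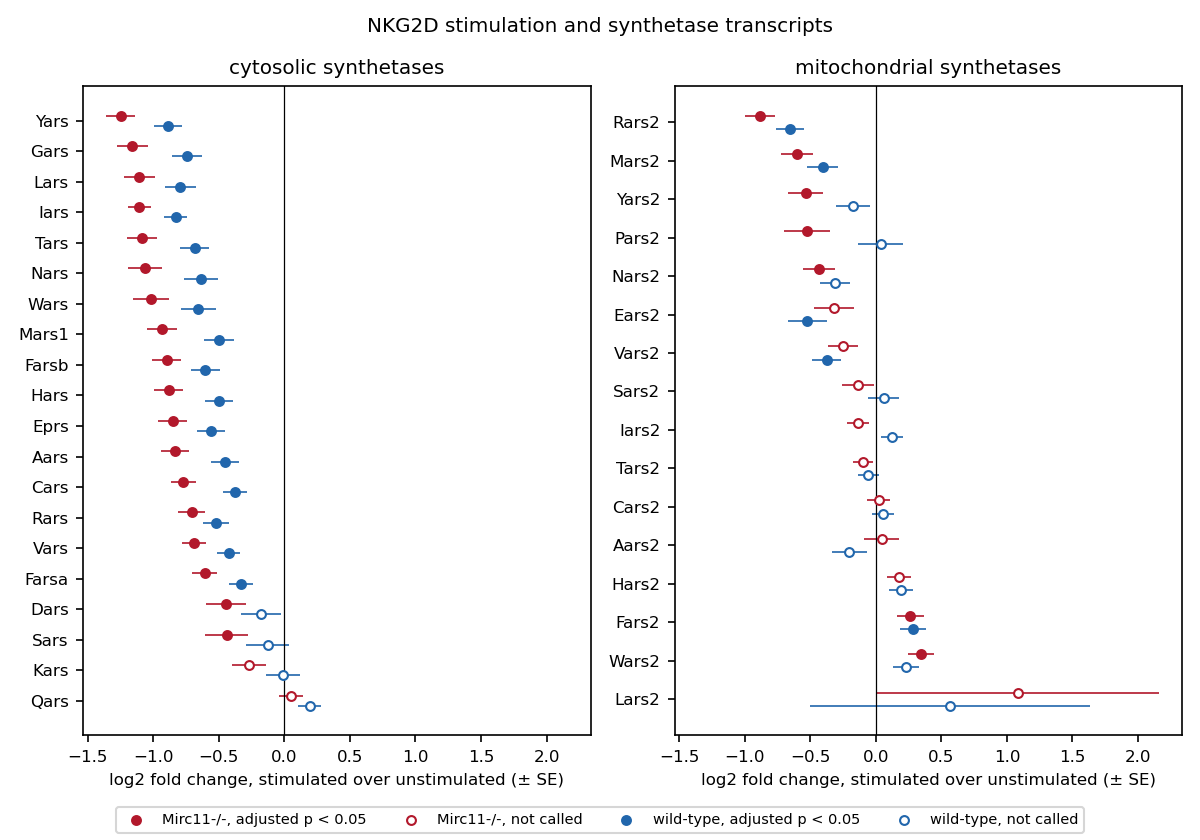
Log2 fold change (stimulated over unstimulated) with its standard error for each synthetase, cytosolic at left and mitochondrial at right, in Mirc11-/- (red) and wild-type cells (blue); filled points passed adjusted p below 0.05. Cytosolic enzymes lie left of 0 except Qars, whereas mitochondrial enzymes spread on both sides of 0, and Lars2 has by far the widest error.

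A second test asked whether a change was larger than 1.5-fold. In Mirc11-/- cells 13 synthetases passed, all lower, of which 12 were cytosolic and 1 was Rars2, where 4.94% of all genes passed as lower. In wild-type cells Iars and Yars passed, both lower, where 2.58% of all genes did. Without replicate 1 of the stimulated Mirc11-/- group, 8 synthetases passed in Mirc11-/- cells. In wild-type cells none passed without replicate 1 of the stimulated group, or without replicate 2 or replicate 3 of the unstimulated group, and 1 passed without replicate 1 of the unstimulated group. Without replicate 1 of both stimulated groups, 10 passed in Mirc11-/- and none in wild-type cells.

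Yars, which charges tyrosine (ENSMUSG00000028811, chr4:129189760-129219607, GRCm38), fell most. It had 43.99, 49.5 and 46.6 CPM in stimulated Mirc11-/- libraries, against 110.04, 105 and 118 CPM in unstimulated ones. Stimulated wild-type libraries had 53.4, 70.8 and 72.1 CPM, against 115, 128 and 120.03 CPM in unstimulated ones. The log2 fold change was -1.25 ± 0.11 (SE; adjusted p = 1.46e-06) in Mirc11-/- cells and -0.88 ± 0.11 (adjusted p = 4.05e-05) in wild-type cells, both from edgeR. Every stimulated library lay below every unstimulated library, and the lowest value within each stimulated group was in replicate 1. Gars, which charges glycine (ENSMUSG00000029777, chr6:55038007-55079500), had 109.8, 149.7 and 151 CPM in stimulated Mirc11-/- libraries, against 307, 298 and 312 CPM in unstimulated ones. Its wild-type values were 188, 225 and 212 CPM with stimulation, against 347, 369 and 331 CPM without. The changes were -1.16 ± 0.12 (adjusted p = 6.24e-06) and -0.74 ± 0.12 (adjusted p = 0.000336) log2 in Mirc11-/- and wild-type cells. Here too the treatments did not overlap in either genotype, and replicate 1 was the lowest of each stimulated group.

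Iars, Lars and Tars followed with falls of similar size. Iars, the isoleucyl enzyme of the multisynthetase complex (ENSMUSG00000037851, chr13:49682100-49734267), had 100.3, 106 and 103 CPM in stimulated Mirc11-/- libraries, against 224, 216 and 225 CPM in unstimulated ones. With 125, 153 and 154 CPM, stimulated wild-type libraries also lay below the unstimulated ones, which had 256, 253 and 257 CPM. The changes of -1.11 ± 0.09 (adjusted p = 7.10e-07) and -0.83 ± 0.09 log2 (adjusted p = 1.24e-05) in Mirc11-/- and wild-type cells had the smallest adjusted p of any cytosolic synthetase in each genotype. Lars, the leucyl enzyme that is also described as a leucine sensor for mTORC1, had 82.6, 99.2 and 109 CPM in stimulated and 206, 199 and 221 CPM in unstimulated Mirc11-/- libraries. Stimulated wild-type libraries had 108, 139.7 and 133 CPM of Lars, and unstimulated ones 207, 238 and 216 CPM. The changes were -1.11 and -0.79 log2 (adjusted p = 8.48e-06 and 0.000199) in Mirc11-/- and wild-type cells, with no overlap between treatments. Tars, the threonyl enzyme, had 54.1, 71.2 and 66.9 CPM in stimulated Mirc11-/- libraries, against 132, 133 and 144 CPM in unstimulated ones. Its stimulated wild-type libraries had 74.5, 94.8 and 91.7 CPM, against 139.9, 148 and 132 CPM in unstimulated ones. The changes were -1.09 and -0.69 log2 (adjusted p = 7.53e-06 and 0.00045), again without overlap.

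The asparaginyl enzyme Nars, the tryptophanyl enzyme Wars and the bifunctional glutamyl-prolyl enzyme Eprs were intermediate. Nars had 83.1, 120.02 and 119.9 CPM in stimulated Mirc11-/- libraries, against 212, 222 and 239.6 CPM in unstimulated ones. Its wild-type libraries had 142, 170.2 and 166 CPM when stimulated and 243, 269 and 234 CPM when not. The log2 changes were -1.06 and -0.64 (adjusted p = 3.10e-05 and 0.00211) in Mirc11-/- and wild-type cells. Wars is also known as an interferon-gamma-induced gene. It had 40.6, 53.7 and 54.99 CPM in stimulated and 106, 94.4 and 103 CPM in unstimulated Mirc11-/- libraries, and 56.3, 82.9 and 71.8 CPM in stimulated and 108, 119.7 and 105 CPM in unstimulated wild-type libraries. It fell like the others, with log2 changes of -1.02 and -0.66 (adjusted p = 6.36e-05 and 0.00239). Eprs, which is also a component of the GAIT complex of translational control, had 206, 263 and 263 CPM in stimulated Mirc11-/- libraries, against 429, 432 and 458 CPM in unstimulated ones. In wild-type cells it had 293, 355 and 323 CPM with stimulation, against 469, 507 and 454 CPM without. Its changes were -0.85 and -0.56 log2 (adjusted p = 4.43e-05 and 0.00165), and none of these genes overlapped between treatments.

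Of the other called cytosolic genes, Mars1, Farsb, Hars, Aars, Cars, Rars, Vars and Farsa fell in both genotypes without overlap. Mars1, which charges both initiator and elongator methionine transfer RNAs, changed by -0.93 ± 0.12 log2 (adjusted p = 3.17e-05) in Mirc11-/- cells and by -0.50 ± 0.11 (adjusted p = 0.00448) in wild-type cells. Farsb and Farsa encode the 2 subunits of phenylalanyl-tRNA synthetase. They changed unequally, at -0.90 and -0.61 log2 in Mirc11-/- cells and -0.60 and -0.33 log2 in wild-type cells, a difference between genes that was not tested. Aars, the alanyl enzyme, had 157, 190.1 and 196 CPM in stimulated and 329, 301 and 339 CPM in unstimulated Mirc11-/- libraries, and changed by -0.83 log2 there (adjusted p = 4.36e-05). In wild-type cells it changed by -0.45 log2 (adjusted p = 0.00545). Aars and Iars share 14.4% and 14.7% of their 31-base words with transcripts of other genes, mostly Exosc6 and Gm4849, so part of their counts is less certain. Hars, the histidyl enzyme, lies head to head with the mitochondrial Hars2 on chromosome 18 and shares 165 such words with it. Reads from where the 2 gene models overlap cannot be told apart, since the strand setting of the counting is not given. Hars changed by -0.88 and -0.50 log2 in Mirc11-/- and wild-type cells, while Hars2 had 0.18 and 0.19 log2 and passed the test in neither.

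The 4 cytosolic genes that were not called in wild-type cells were Qars, Kars, Sars and Dars. Qars, the glutaminyl enzyme of the multisynthetase complex, had 86.02, 104 and 112 CPM in stimulated and 96.1, 94.7 and 100.2 CPM in unstimulated Mirc11-/- libraries, with a log2 change of 0.05 ± 0.09 (adjusted p = 0.668). Stimulated wild-type libraries had 114, 118 and 118 CPM of Qars, against 103, 105 and 98.2 CPM in unstimulated ones, a log2 difference of 0.19 ± 0.09 (adjusted p = 0.12). The wild-type groups did not overlap, with stimulated libraries higher (24.9% of all genes tested were so), but the test was not passed. Kars, which charges lysine in both compartments, had 94.02, 135 and 144 CPM in stimulated and 149.9, 138 and 162 CPM in unstimulated Mirc11-/- libraries (log2 -0.27, adjusted p = 0.102), which overlapped. Its wild-type values, 155, 165 and 155 CPM with and 159, 168 and 152 CPM without stimulation, overlapped as well (log2 -0.01, adjusted p = 0.961). Sars, the seryl enzyme, had 138, 209 and 221 CPM in stimulated and 268, 225 and 277 CPM in unstimulated Mirc11-/- libraries, a log2 change of -0.44 (adjusted p = 0.0432). In wild-type cells Sars had 251, 301 and 267 CPM with and 297, 345 and 252 CPM without stimulation, and the groups overlapped (log2 -0.13, adjusted p = 0.596). Dars, the aspartyl enzyme, had 49.4, 85.8 and 72.7 CPM in stimulated and 87.8, 98.96 and 96.5 CPM in unstimulated Mirc11-/- libraries (log2 -0.45, adjusted p = 0.0292). Wild-type cells gave -0.18 log2 for Dars (adjusted p = 0.396), with overlap. For all 4 genes, replicate 1 was clearly the lowest of the stimulated Mirc11-/- libraries, and the calls of Dars and Sars were lost under at least 1 alternative besides the vomeronasal covariate described below.

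**Figure D2:**
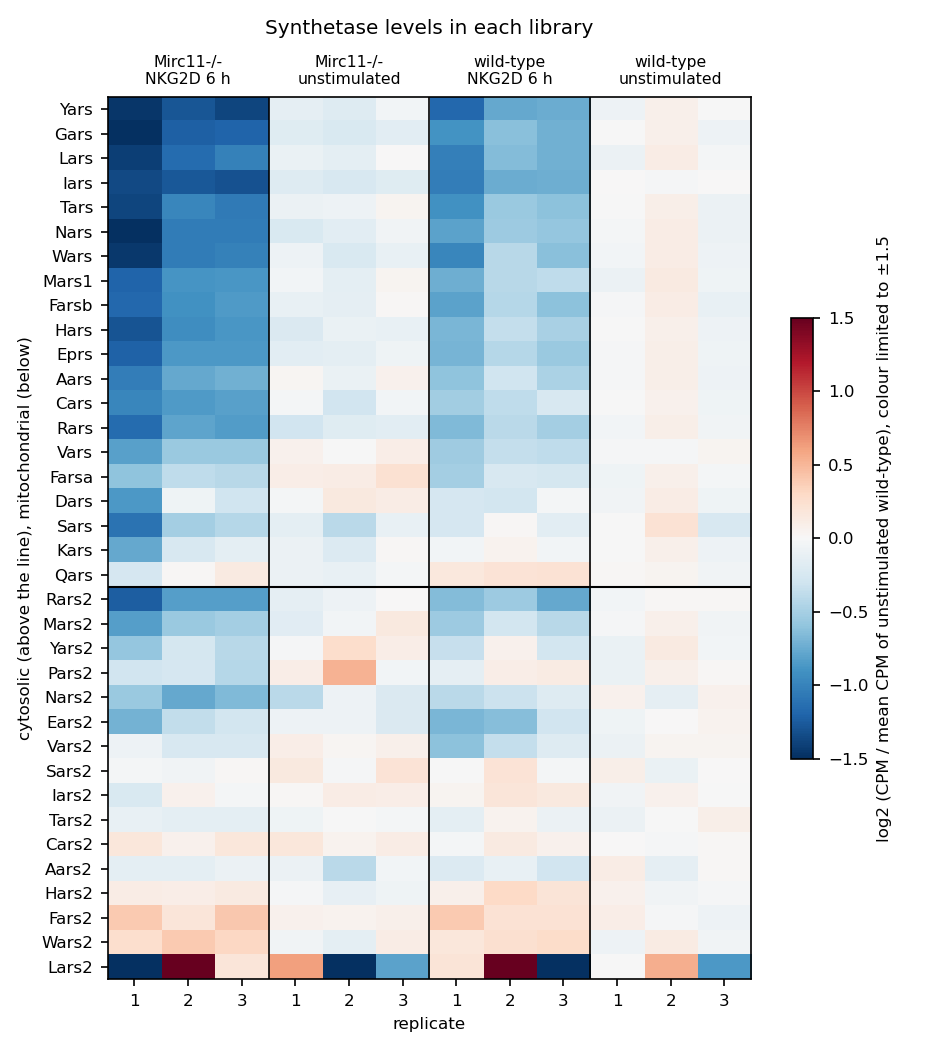
Heat map of each synthetase (cytosolic above the line, mitochondrial below) in each of the 12 libraries, as log2 of CPM over the mean of the unstimulated wild-type libraries, with colours limited to 1.5 either way. The block of stimulated Mirc11-/- libraries is darkest blue for cytosolic genes, with replicate 1 the lowest for all 20, and Lars2 in the bottom line varies without regard to group.

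The changes were spread over both structural classes and over the multisynthetase complex. Of the 8 enzymes of the complex, 6 fell in Mirc11-/- cells and 5 in wild-type cells, and the exceptions Kars, Qars and Dars all belong to it. As background for the counts of subgroups, 22.1% of all genes tested fell in Mirc11-/- and 15.7% in wild-type cells, or 41.3% and 26.0% at the abundance of the cytosolic synthetases. Of the 12 outside it, 12 fell in Mirc11-/- cells and 11 in wild-type cells, all but Sars. Class I and class II enzymes differ in the fold of their catalytic domain; 8 of 9 class I enzymes fell in each genotype, and 9 of 10 class II enzymes in Mirc11-/- and 7 of 10 in wild-type cells. Eprs carries one domain of each class and was counted with neither. The 12 genes listed as known ATF4 targets (Aars, Cars, Eprs, Gars, Iars, Lars, Mars1, Nars, Sars, Tars, Wars and Yars) had a median of -1.04 log2 in Mirc11-/- cells, where 12 fell, and -0.65 log2 in wild-type cells, where 11 fell. The other 8 had medians of -0.65 and -0.38 log2 in Mirc11-/- and wild-type cells, and 6 and 5 of them fell. The 5 genes with the TGATGNAA core ranged from -1.25 to -0.83 log2 in Mirc11-/- cells and from -0.88 to -0.45 log2 in wild-type cells, and all 5 fell in each. The 8 cytosolic genes whose promoters hold no match had medians of -0.53 and -0.26 log2 in Mirc11-/- and wild-type cells. Of these 8 genes, 6 fell in Mirc11-/- and 4 in wild-type cells. The ranges of the 8 overlap those of the genes with a match. These subgroups are described and were not tested against each other.

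Mitochondrial synthetases changed in both directions. In Mirc11-/- cells 5 of 16 fell (Mars2, Nars2, Pars2, Rars2 and Yars2) and 2 rose (Fars2 and Wars2), with a median log2 change of -0.14, where 23.5% of all genes tested rose. In wild-type cells 4 fell (Ears2, Mars2, Rars2 and Vars2) and 1 rose (Fars2), with a median of -0.01, where 16.1% of all genes rose. The shares called lower among all genes at or above the level of the least abundant mitochondrial synthetase were 32.2% in Mirc11-/- cells and 21.0% in wild-type cells, and those of the mitochondrial synthetases were close to these backgrounds. Without Lars2, the summed CPM of the other 15 averaged 247 ± 9.43 in stimulated and 278 ± 6.57 in unstimulated Mirc11-/- cells, and 265 ± 13.8 in stimulated and 276 ± 4.81 in unstimulated wild-type cells (SD, n = 3). The treatments did not overlap in Mirc11-/- cells and did in wild-type cells.

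Rars2, the mitochondrial arginyl enzyme (ENSMUSG00000028292, chr4:34614957-34660167), was the member of its class that fell most. It had 10.8, 14.3 and 14.4 CPM in stimulated and 23.2, 24.2 and 25.5 CPM in unstimulated Mirc11-/- libraries, a change of -0.88 ± 0.11 log2 (adjusted p = 3.91e-05). Its wild-type libraries had 16.2, 17.4 and 14.9 CPM with and 24.8, 25.8 and 25.8 CPM without stimulation, a change of -0.65 ± 0.11 log2 (adjusted p = 0.000538). Treatments did not overlap, and Rars2 was the only mitochondrial gene whose wild-type call held under every alternative other than the vomeronasal covariate. Mars2, the methionyl enzyme, had 8.69, 10.5 and 10.8 CPM in stimulated and 13.7, 15.01 and 16.98 CPM in unstimulated Mirc11-/- libraries, and changed by -0.60 log2 (adjusted p = 0.00129). In wild-type cells Mars2 changed by -0.41 log2 (adjusted p = 0.0184), also without overlap. Fars2, the mitochondrial phenylalanyl enzyme, rose: it had 17.4, 15.1 and 17.6 CPM in stimulated and 13.9, 13.8 and 14.1 CPM in unstimulated Mirc11-/- libraries, and 17.5, 15.4 and 15.5 CPM in stimulated and 14.2, 13.1 and 12.6 CPM in unstimulated wild-type libraries. The rises were 0.26 and 0.28 log2 (adjusted p = 0.0451 and 0.0436), close to the threshold but with stimulated libraries higher without overlap in both genotypes, as were 27.9% of all genes in Mirc11-/- cells. Wars2, the tryptophanyl enzyme, rose by 0.34 log2 in Mirc11-/- cells (adjusted p = 0.013), with 16.7, 18.4 and 17.4 CPM in stimulated and 13.6, 12.7 and 15.1 CPM in unstimulated libraries. In wild-type cells its log2 difference of 0.23 was not called (adjusted p = 0.0914).

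Of the other mitochondrial calls, Yars2 and Nars2, the tyrosyl and asparaginyl enzymes, changed by -0.54 and -0.43 log2 in Mirc11-/- cells (adjusted p = 0.00514 and 0.00903), and neither was called in wild-type cells (-0.17 and -0.31 log2). Pars2, the prolyl enzyme and one of the least abundant, had 3.48, 3.55 and 3.15 CPM in stimulated and 4.53, 6.05 and 4.099 CPM in unstimulated Mirc11-/- libraries (log2 -0.53, adjusted p = 0.0268). Ears2 and Vars2, the glutamyl and valyl enzymes, fell in wild-type cells, with log2 changes of -0.52 and -0.38 (adjusted p = 0.0162 and 0.0215), and their Mirc11-/- values were -0.32 and -0.25 log2. The calls of Pars2, Fars2 and Wars2 in Mirc11-/- cells, and of all wild-type mitochondrial genes but Rars2, were lost under at least 1 alternative besides that covariate. Aars2, Cars2, Hars2, Iars2, Sars2 and Tars2 passed in neither genotype, with log2 changes between -0.20 and 0.19. Iars2 shares 23.6% of its 31-base words with other genes, mostly its neighbour Rab3gap2, so its level is uncertain.

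Lars2, the mitochondrial leucyl enzyme (ENSMUSG00000035202, chr9:123366927-123462666), could not be read. It had 56.3, 592 and 188 CPM in stimulated and 254, 46.5 and 94.8 CPM in unstimulated Mirc11-/- libraries. Wild-type libraries had 189, 497 and 46.9 CPM with and 164, 241 and 91.4 CPM without stimulation. Within each group the highest library exceeded the lowest by 2.63- to 10.6-fold, and all groups overlapped. The coefficient of variation within groups was 45.1% to 100.1% for Lars2, whereas its median over the other mitochondrial genes lay between 5.58% and 7.34%. The estimates of 1.08 ± 1.08 log2 in Mirc11-/- and 0.56 ± 1.07 log2 in wild-type cells were not called (adjusted p = 0.448 and 0.728). Of its 31-base words, 0.923% occur in GENCODE vM21 transcripts of other genes, and no other sequences were compared. The cause of the scatter was not tested.

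For 13 amino acids a cytosolic and a separate mitochondrial gene could be paired by symbol, as Aars with Aars2. The log2 ratio of their CPM was taken within each library, which removes differences in library scaling. Phenylalanine, glutamate and proline also have both kinds of gene among the members (Farsa and Farsb with Fars2, and Eprs with Ears2 and Pars2). Ratios were not taken for them, since their symbols do not match in this way. Stimulated minus unstimulated, the ratio was lower without overlap for 11 of 13 pairs in Mirc11-/- cells, higher for 1, and changed by a median of -0.79. In wild-type cells it was lower without overlap for 8 pairs and higher for none, with a median of -0.44. Of all single genes tested, 26.2% were lower and 27.9% higher without overlap in Mirc11-/- cells, and 24.1% and 24.9% in wild-type cells. No such share was taken for ratios of other gene pairs. A ratio also falls when its cytosolic gene alone falls, so these counts partly repeat the falls given above. The largest shift among pairs without overlap was that of tryptophan in Mirc11-/- cells: Wars over Wars2 was 1.497 ± 0.193 log2 in stimulated and 2.87 ± 0.10 log2 in unstimulated libraries (SD, n = 3). In wild-type cells the same ratio was 2.08 ± 0.24 and 2.98 ± 0.03 log2 in stimulated and unstimulated libraries. Isoleucine showed close shifts in both genotypes, at -0.97 in Mirc11-/- and -0.96 log2 in wild-type cells. Arginine was the exception, with the larger fall in Rars2: Rars over Rars2 was 2.07 ± 0.05 log2 in stimulated and 1.89 ± 0.03 log2 in unstimulated Mirc11-/- libraries, and overlapped in wild-type cells. The leucine pair overlapped in both genotypes, as Lars2 itself did.

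**Figure D3:**
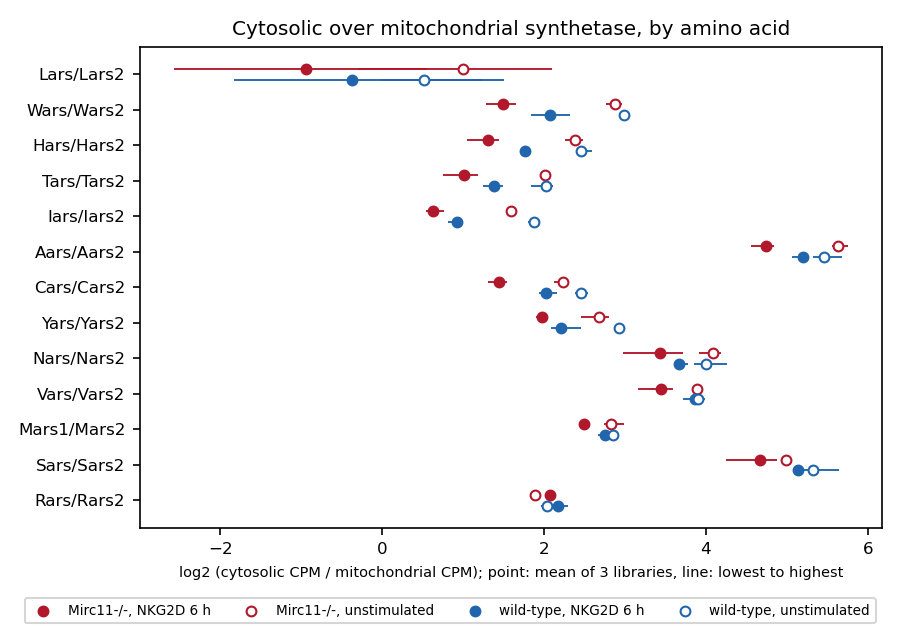
Log2 ratio of cytosolic to mitochondrial CPM for 13 amino acids in Mirc11-/- (red) and wild-type cells (blue), stimulated (filled) and unstimulated (open); points are means of 3 libraries and lines run from the lowest to the highest. The ratio is not scaled for gene length, so only shifts between groups are to be read: filled points lie left of open ones for all pairs but Rars/Rars2.

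The response of Mirc11-/- cells was compared with that of wild-type cells by the interaction. No synthetase passed (edgeR, lowest adjusted p = 0.443), where 2 of all genes tested did (0.0115%), and DESeq2 and limma voom also called none of the 36. At an unadjusted p under 0.05 there were 11 synthetases, 9 of them cytosolic, where 10.6% of all genes tested were below that level. All 20 cytosolic estimates were below 0, from -0.43 for Mars1 to -0.14 for Qars with a median of -0.31, against -0.02 over all genes tested. That median was -0.22 without replicate 1 of the stimulated Mirc11-/- group, -0.41 without replicate 1 of the stimulated wild-type group and -0.32 without both. The 20 share the same 12 libraries, so they are not 20 independent observations. Other lists described below were shifted the same way. Estimates below 0 numbered 21 of 22 for cytosolic translation factors (median -0.26), 73 of 78 for mitochondrial ribosomal proteins (-0.27) and 31 of 35 for the ATF4 amino-acid response (-0.30). All 11 NK markers were below 0 (-0.43), as were 11 of 16 mitochondrial synthetases (-0.04) and 9151 of all 17457 genes tested. Ranked by their change, the cytosolic genes stood in nearly the same order in both genotypes (Spearman rho 0.96 over 20 genes), and the mitochondrial genes less so (0.77 over 15 genes without Lars2); these are descriptions across genes.

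Mirc11-/- and wild-type cells were also compared within each treatment. Unstimulated cells showed no called synthetase (edgeR, 1 at an unadjusted p under 0.05, where 9.21% of all genes were, and 0 by DESeq2 and by limma voom). Of all genes 1.11% were called, and the cytosolic median was -0.10 log2. After stimulation 12 cytosolic synthetases were lower in Mirc11-/- cells and no mitochondrial one differed by the test, with a cytosolic median of -0.43 log2. Of all genes tested, 9.02% were called there and 5.13% as lower, or 12.2% as lower among genes at least as abundant as the cytosolic synthetases. Gars differed most, by -0.61 ± 0.12 log2 (adjusted p = 0.0093), with 109.8, 149.7 and 151 CPM in stimulated Mirc11-/- and 188, 225 and 212 CPM in stimulated wild-type libraries. Nars, Hars, Wars and Cars differed by -0.57, -0.52, -0.50 and -0.50 log2 (adjusted p = 0.0205, 0.0148, 0.0399 and 0.00874). Iars had the smallest adjusted p (-0.48 log2, adjusted p = 0.00618). With only the stimulated libraries in the fit, none was called, while the cytosolic median was again -0.43 log2; that fit also has its own filter, scaling and spread. The count was 2 without replicate 2 and 3 without replicate 3 of the stimulated wild-type group, 6 without replicate 1 of the stimulated Mirc11-/- group, and 7 without replicate 1 of the unstimulated wild-type group. Without replicate 1 of both stimulated groups it was 14, with a cytosolic median of -0.397 log2. Other lists were also lower in stimulated Mirc11-/- cells. Estimates below 0 numbered 22 of 22 for cytosolic translation factors (median -0.30 log2), 76 of 78 for mitochondrial ribosomal proteins (-0.25) and 33 of 35 for the ATF4 amino-acid response (-0.49). They numbered 9 of 16 for mitochondrial synthetases (-0.08) and 8302 of 17457 for all genes tested (0.02).

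**Figure D4:**
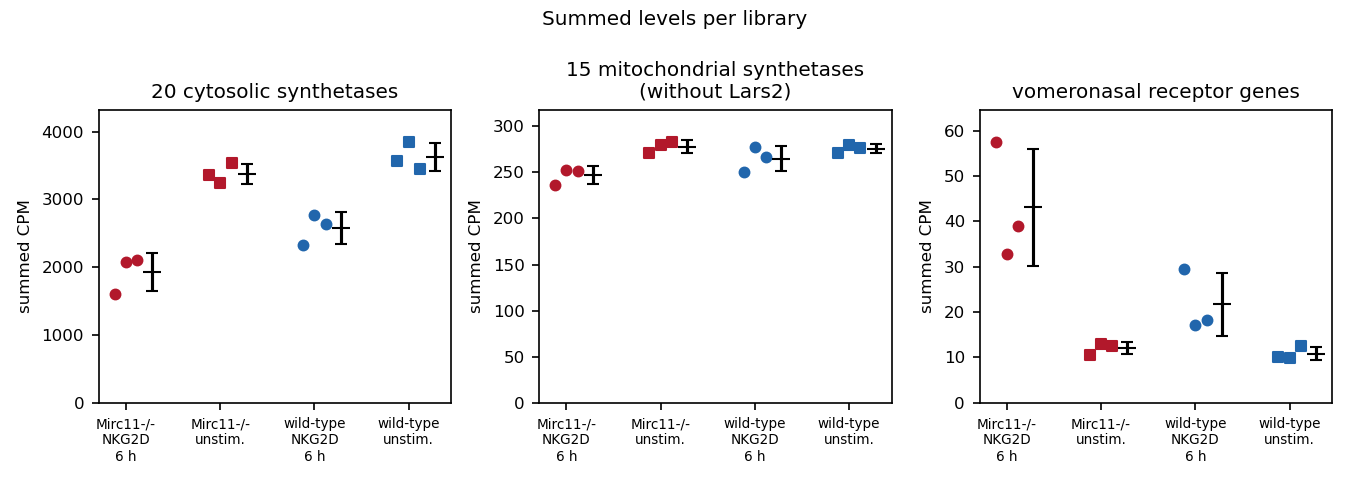
Summed CPM per library of the 20 cytosolic synthetases, the 15 mitochondrial synthetases without Lars2, and vomeronasal receptor genes, in the 4 groups (circles stimulated, squares unstimulated, bars mean ± SD of 3 libraries; axes start at 0). Cytosolic sums are lower and vomeronasal sums higher in stimulated libraries of both genotypes, and the library with the lowest cytosolic sum (1609) has the highest vomeronasal sum (57.6).

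The vomeronasal sum of each library was also entered in the fit. With its log2 as a covariate, 1 synthetase was called in Mirc11-/- cells (Iars, -0.73 log2, adjusted p = 0.0444). In wild-type cells 4 were called, with Iars, Yars and Lars lower (-0.63, -0.57 and -0.44 log2) and Qars higher (0.39 log2). No synthetase then differed between stimulated Mirc11-/- and wild-type cells. The cytosolic median was -0.24 log2 with the covariate in Mirc11-/- cells, against -0.87 without it, and -0.18 in wild-type cells, against -0.51 without it. Between stimulated genotypes it was -0.036 log2 with the covariate, against -0.43 without it. Over all genes tested the fit with the covariate called 737 genes in Mirc11-/- cells, against 7958 without it, and 3864 in wild-type cells, against 5559 without it. Because the sum separates the treatments in both genotypes, what belongs to stimulation and what to that sum cannot be told apart.

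Genes around the synthetases were counted from lists, where of all genes tested 22.1% fell and 23.5% rose in Mirc11-/- cells and 15.7% fell and 16.1% rose in wild-type cells. Of 19 accessory and charging factors, 10 fell and 2 rose in Mirc11-/- cells (median -0.41 log2), and 8 fell and 1 rose in wild-type cells (median -0.27 log2). Xpot, the nuclear exporter of transfer RNA, averaged 78.5 CPM in stimulated and 165 CPM in unstimulated Mirc11-/- cells (-1.08 log2), and 111 and 180.0 CPM in stimulated and unstimulated wild-type cells (-0.70 log2). Among the scaffold proteins of the multisynthetase complex, Eef1e1 changed by -1.09 and -0.51 log2 in Mirc11-/- and wild-type cells. Aimp2 fell in Mirc11-/- cells (-0.77 log2), and Aimp1 was called in neither (-0.05 and 0.14 log2). Aarsd1, an alanyl-tRNA editing protein, changed by -1.39 and -0.42 log2, and Pus1, a pseudouridine synthase of transfer RNA, by -0.81 and -0.48 log2, in Mirc11-/- and wild-type cells.

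The ATF4 amino-acid response had the lowest median of the lists around the synthetases. Of its 35 measured members, 28 fell and none rose in Mirc11-/- cells (median -0.99 log2), and 25 fell and 1, the mTORC1 inhibitor Ddit4, rose in wild-type cells (median -0.71 log2), where 22.1% of all genes fell in Mirc11-/- and 15.7% in wild-type cells. Slc7a5, the large neutral amino-acid transporter that imports leucine, isoleucine, tyrosine and tryptophan, averaged 75.98 CPM in stimulated and 369 CPM in unstimulated Mirc11-/- cells, and 147 and 476 CPM in stimulated and unstimulated wild-type cells. Its log2 changes were -2.28 and -1.69. Slc7a1, an arginine and lysine transporter, changed by -1.27 and -1.14 log2, Slc38a2, a transporter of small neutral amino acids, by -0.996 and -0.72 log2, and Sesn2, a leucine-binding regulator of mTORC1, by -1.04 and -0.84 log2 in Mirc11-/- and wild-type cells. Asns and Chac1, whose matches are shown above, changed by -1.14 and -2.10 log2 in Mirc11-/- cells and by -0.56 and -1.04 log2 in wild-type cells. Atf4 itself changed by -0.79 log2 in Mirc11-/- cells (adjusted p = 0.00243) and was not called in wild-type cells (-0.33 log2, adjusted p = 0.158). The promoter window held the TGATGNAA core in 8 of the 31 list members in the RefSeq table (25.8%).

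Other lists of protein synthesis genes had medians nearer to 0. Of 22 cytosolic translation factors, 14 fell in Mirc11-/- cells (median -0.48 log2) and 11 in wild-type cells (median -0.27 log2), and none rose; of all genes 22.1% and 15.7% fell in Mirc11-/- and wild-type cells. Eif4g1, the scaffold of the cap-binding complex, changed by -0.75 and -0.58 log2 in Mirc11-/- and wild-type cells, and the cap-binding protein Eif4e by -0.77 and -0.49 log2. The release factor Gspt1 and the ribosome recycling factor Abce1 changed by -0.80 and -0.79 log2 in Mirc11-/- cells and by -0.52 and -0.47 log2 in wild-type cells. Eef1a1, the factor that delivers charged transfer RNA, had 0.03 and 0.24 log2 in Mirc11-/- and wild-type cells and was called in neither. Of 78 mitochondrial ribosomal proteins, 38 fell and 1 rose in Mirc11-/- cells (median -0.36 log2), and 3 fell and 4 rose in wild-type cells (median -0.11 log2). Mrpl41 and Mrpl19, of the large subunit, fell in both, by 0.93 and 0.68 log2 in Mirc11-/- cells and by 0.64 and 0.40 log2 in wild-type cells. Of 11 mitochondrial translation factors, 4 fell and 1 rose in Mirc11-/- cells and 2 fell and 1 rose in wild-type cells, the wild-type shares being near those of all genes (15.7% fell and 16.1% rose); C1qbp fell and Mtif3 rose in both.

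**Figure D5:**
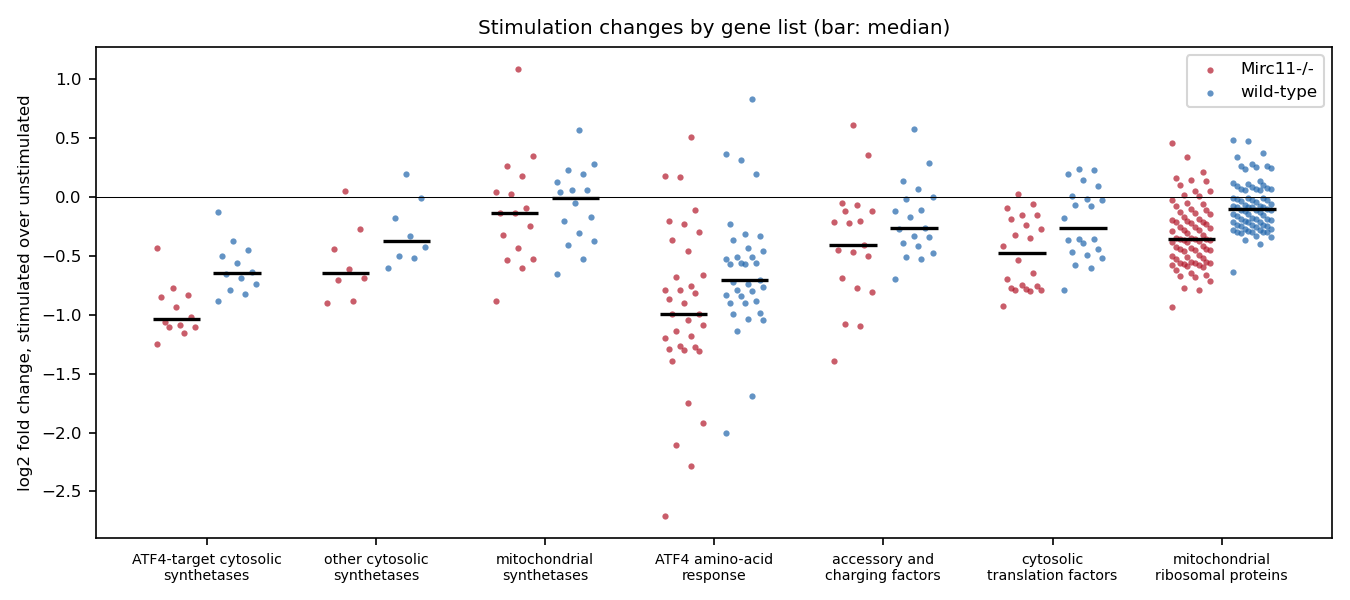
Log2 fold change (stimulated over unstimulated) of each measured gene in 7 lists, in Mirc11-/- (red, left of each pair) and wild-type cells (blue, right), with the median as a bar. The medians of the ATF4-target synthetases are -1.04 and -0.65 and those of the ATF4 amino-acid response are -0.99 and -0.71, while mitochondrial synthetases are centred at -0.14 and -0.01.

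Markers of cell type also moved with stimulation. Of 11 NK markers, 7 fell and 1 rose in Mirc11-/- cells, and 7 fell and 3 rose in wild-type cells, where 22.1% of all genes fell and 23.5% rose in Mirc11-/- and 15.7% fell and 16.1% rose in wild-type cells. Their median was -1.23 log2 in Mirc11-/- and -0.52 log2 in wild-type cells, beside -0.87 and -0.51 for the cytosolic synthetases. Their summed CPM lay between 4836 and 7457 in stimulated and between 12395 and 13442 in unstimulated Mirc11-/- libraries. In wild-type libraries it lay between 8362 and 9752 with and between 11471 and 13795 without stimulation. Summed T-cell markers overlapped between treatments in both genotypes, with 75.7 to 97.6 CPM in stimulated and 67.6 to 114 CPM in unstimulated Mirc11-/- libraries, and 46.2 to 72.7 and 38.6 to 66.6 CPM in stimulated and unstimulated wild-type libraries. Of 8 T-cell markers 1, Cd4, rose in each genotype, to means of 0.996 and 1.07 CPM in stimulated Mirc11-/- and wild-type cells. Summed B-cell markers were higher after stimulation, at 102 to 113 CPM in stimulated and 64.2 to 73.2 CPM in unstimulated Mirc11-/- libraries, and 105 to 128 and 57.1 to 71.9 CPM in stimulated and unstimulated wild-type libraries. Nearly all of that was Ighm, while Cd79a and Cd79b averaged under 1 CPM in every group. Summed macrophage markers were higher after stimulation without overlap, at 10.8 to 15.1 CPM in stimulated and 5.23 to 9.38 CPM in unstimulated Mirc11-/- libraries, and 15.95 to 19.2 and 8.9 to 11.3 CPM in stimulated and unstimulated wild-type libraries. Of the 3 that passed the filter, 2 rose in Mirc11-/- and 1 in wild-type cells. Neutrophil markers summed to at most 2.31 CPM in any library. Dendritic-cell markers, mostly Itgax, which activated NK cells also express, summed to 159 to 194 CPM in stimulated and 190.0 to 207 CPM in unstimulated Mirc11-/- libraries, and 87.3 to 131 and 76.5 to 130 CPM in stimulated and unstimulated wild-type libraries. Between genotypes, T-cell and dendritic-cell sums were higher in Mirc11-/- libraries without overlap, with and without stimulation. After stimulation, NK and macrophage sums were lower in Mirc11-/- libraries without overlap, while B-cell sums overlapped. Without stimulation, NK, macrophage and B-cell sums overlapped between genotypes. The part of these markers in the synthetase results, between treatments or genotypes, was not tested.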

How the data were processed

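The members and the gene lists were chosen with earlier results of these data known. The authors deposited RSEM expected counts per gene, which were already whole numbers, for 12 libraries. The tools named per the submitters' processing notes are RSEM 1.3.0, Bowtie2 2.2.8, Trim Galore 0.4.1 and bcl2fastq, and the build is GRCm38. The annotation release and the strand setting of the counting are not given in the sources used here. Estimated counts divide reads that fit several genes between them, which can blur genes with shared sequence. Totals were 15139281 to 25342991 counts per library, no 2 libraries were identical, and 17457 of 50674 genes passed edgeR's filterByExpr by group.

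Scaling was by TMM, and edgeR 4.0.16 in R 4.3.3 fitted a quasi-likelihood model (robust setting), with a mean per group and a spread shared by all 12 libraries. P values were two-sided and adjusted by Benjamini-Hochberg over all genes tested, with a threshold of 0.05; glmTreat tested against 1.5-fold. DESeq2 1.42.0 and limma voom 3.58.1 were alternatives, with other scalings, filters, sample sets, covariates and left-out libraries. The fit was tested on simulated counts, with a pass mark lowered after a first run; it recovered the larger changes but missed many of the smaller ones, so a gene that is not called is not shown to be unchanged. CPM uses TMM library sizes; RPKM adds exon-union length from GENCODE vM21, and 31-base words shared between genes came from its transcripts. All 36 members are named; of each other list, up to 4 genes with the smallest p are named, and the others (Aimp1, Aimp2, Atf4, Asns, Chac1, Ddit4, Eef1a1, Itgax and most cell-type markers) were chosen after their values were seen. The labels give the replicates as biological but not from which animals or cultures, so p values measure the spread between these samples. A few genes and sequences are not reported here.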

Additional observations from a re-analysis of the deposited data

How the results depend on the processing

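Among the alternatives other than the vomeronasal covariate and left-out libraries (other scalings, filters, tests, sample sets and replicate blocks), the counts of synthetases called for stimulation, the cytosolic counts called lower and the 0 synthetases called for the interaction and in unstimulated cells stayed within 1.5 times their reported values. Signs were compared only for values called in the reported fit or in the other setting. With the vomeronasal sum as a covariate, the synthetases called, the cytosolic ones lower and those past 1.5-fold were 1, 1 and 0 in Mirc11-/- cells and 4, 3 and 0 in wild-type cells, and 0 differed between stimulated genotypes. There Dars (0.31), Sars (0.56) and Fars2 (-0.031 log2) changed sign for stimulation of Mirc11-/- cells, as did Wars (0.062 log2) between stimulated genotypes, none of them called. Without a filter, 1 synthetase passed 1.5-fold in wild-type cells, and with only the stimulated groups fitted, 0 differed between genotypes. Leaving out each library gave 21 to 25 called in Mirc11-/- and 16 to 23 in wild-type cells, 8 to 14 and 0 to 2 past 1.5-fold, and 2 to 14 between stimulated genotypes; a group left with 2 libraries shares the spread of the others. Without replicate 1 of both stimulated groups, chosen after seeing the data, 24 and 21 were called in Mirc11-/- and wild-type cells, 10 and 0 past 1.5-fold, and 14 between stimulated genotypes. The cause of these shifts was not tested. Apart from the covariate, 16 of the 18 cytosolic calls in Mirc11-/- cells and 15 of the 16 in wild-type cells (all but Farsa) held under every alternative, against 4 of 7 and 1 of 5 mitochondrial calls.

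Replicate numbers were not taken as pairs, since the labels do not say that they pair cultures. Deviations of same-numbered libraries correlated at -0.13 to 0.19, over 0.1 in 6 of 18 pairs and in 3 of the 6 pairs within a genotype. Wild-type same-numbered pairs gave 0.07, 0.19 and 0.12, and differently numbered ones -0.15 to 0.02. Mirc11-/- same-numbered pairs gave 0.05, -0.05 and 0.11, and differently numbered ones -0.16 to 0.10. These values do not settle whether the numbers pair cultures. The stimulated libraries of replicate 1, both low for cytosolic genes, correlated at 0.19. A replicate block called 25 synthetases in Mirc11-/- cells, 21 in wild-type cells, 0 for the interaction, 0 between unstimulated and 14 between stimulated genotypes, and a block within each genotype 25, 21 and 0 for the first 3. The least abundant synthetase, Pars2, had a few CPM; the median coefficient of variation within groups was 5.58% to 7.34% for mitochondrial genes without Lars2 and 5.43% to 13.3% for cytosolic genes.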
